A study of Mus musculus and Rattus norvegicus with 24 samples.

Results

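Protein kinase A (PKA), protein kinase C (PKC), AMP-activated protein kinase (AMPK), the calcium and calmodulin-dependent (CaM) kinases and the mitogen-activated protein (MAP) kinases were followed gene by gene in single heart muscle cells. Every gene whose symbol begins with Prka, Prkc, Camk or Mapk, or with Map2k, Map3k or Map4k and a digit, was taken, which gave 57 of 9595 listed genes. Of these 57 genes, 55 had a count in at least 1 of 24 cells, and Map3k8 and Mapkapk3 had none. The prefixes also take in AMPK subunits, scaffold proteins of the MAP kinase modules, and Prkcsh and Mapkap1, which encode a glucosidase subunit and a subunit of the mTORC2 complex and not kinases of these families. Prkcsh and Mapkap1 were kept, since the choice was by symbol. For brevity all 57 are called kinase genes.

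In heart muscle, cyclic AMP made after beta-adrenergic stimulation releases PKA catalytic subunits from their regulatory subunits, and PKA and CaM kinase II phosphorylate channels, phospholamban and troponin I, which sets the strength and speed of the beat. PKC isoforms act downstream of receptors coupled to phospholipase C, and AMPK senses the energy state of the cell. MAP kinases form relays in which a MAP4K or other input acts on a MAP3K, that on a MAP2K, and that on ERK, JNK or p38, which act on transcription factors and on MAP kinase-activated kinases.

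The data are RNA sequencing counts of 8 cells in each of 3 groups. Transplanted cells were cardiomyocytes made from a mouse embryonic stem cell line with Isl1-Cre, Rosa-RFP and aMHC-GFP, taken after 30 days in the heart of a neonatal rat. Adult cells were ventricular cardiomyocytes of adult wild-type rats. Cultured cells came from the same mouse stem cell line and had spent 30 days in vitro. Isl1-Cre marks descendants of Isl1-expressing cells and the aMHC promoter is active in cardiomyocytes, so these reporters limit which cells of the line can be recognised. Since neither animals nor cultures are named in the labels, a group is 1 sample, and groups were compared without a test. Values are therefore levels, ratios and ranges. A level is given in CPM, the counts of a gene in the sum over the 8 cells of a group scaled to a total of 1000000. Brackets after a level or ratio hold exact 95% intervals. These intervals cover counting error only and leave out differences between cells. Reads copied by PCR are not independent molecules, so the intervals are too narrow even for counting error. The rat cells are mapped to mouse genes, so species, mapping and group cannot be told apart in any comparison with adult cells.

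Total counts ran from 88796 to 344224 per transplanted cell, from 108546 to 223744 per adult cell and from 16099 to 60789 per cultured cell. A count of 0 over a group allows a level of up to 2.30 CPM in transplanted, 2.36 CPM in adult and 14.6 CPM in cultured cells, taken at 3 counts. Cardiomyocyte markers, a list of 14 genes, took 14.1 to 21.6% of counts per transplanted cell and 14.9 to 20.0% per adult cell, against 0.00837 to 17.5% per cultured cell. Myl7 was at 0 in transplanted and adult cells and Mybpc3 in cultured cells. Cultured cells F, G and H held 0.742%, 0.0883% and 0.00837% of these markers, and their label as cardiomyocytes is weakly borne by them. In cultured cells B to E the RNase P RNA Rpph1 took 2.51 to 5.48% of counts, against at most 0.0574% in the other cultured cells. Fibroblast markers (7 of 11 listed) summed to 0 counts in transplanted and 3 in adult cells, against 57 in cultured cells, where cells ranged from 0 to 0.109%, and Col3a1, Dcn and Postn were at 0 in all groups. Markers of macrophages and leukocytes (3 of 10 listed) had 0 counts in transplanted and adult cells and 27 in cultured cells. The part of these differences between cells in the kinase results was not tested, other than by leaving the named cells out.

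Kinase transcripts were rare and scattered in all 3 groups. They took 0.0787% of transplanted counts (0.0740 to 0.0837), 0.154% of adult counts (0.147 to 0.161) and 0.403% of cultured counts (0.376 to 0.431). Per cell the share was 0 to 0.250% with a median of 0.0959% in transplanted cells, 0.0447 to 0.226% with a median of 0.175% in adult cells and 0.157 to 0.825% with a median of 0.478% in cultured cells. The ranges of the groups overlapped. Transplanted cell E had 0 kinase counts among 195749, which allows a share of up to 0.00153% at 3 counts, and transplanted cell H had 2 among 344224. These are the 2 most deeply sequenced transplanted cells.

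The number of kinase genes seen per cell followed the same order. Transplanted cells showed 0 to 7 kinase genes with a median of 2.0, adult cells 3 to 9 with a median of 6.0, and cultured cells 4 to 19 with a median of 9.5. At an equal depth of 16099 counts per cell the expected medians were 1.38, 4.0 and 8.29. All genes behaved likewise in part, with medians of 754.0, 930.0 and 1494.0 genes detected per transplanted, adult and cultured cell. As a percentage of the genes detected in a cell, kinase genes had medians of 0.257%, 0.520% and 0.654%. Single cells ran from 0 to 0.723%, 0.425 to 0.822% and 0.342 to 0.742%. The median was thus lowest in transplanted cells, while the ranges of the groups overlapped.

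**Figure D1:**
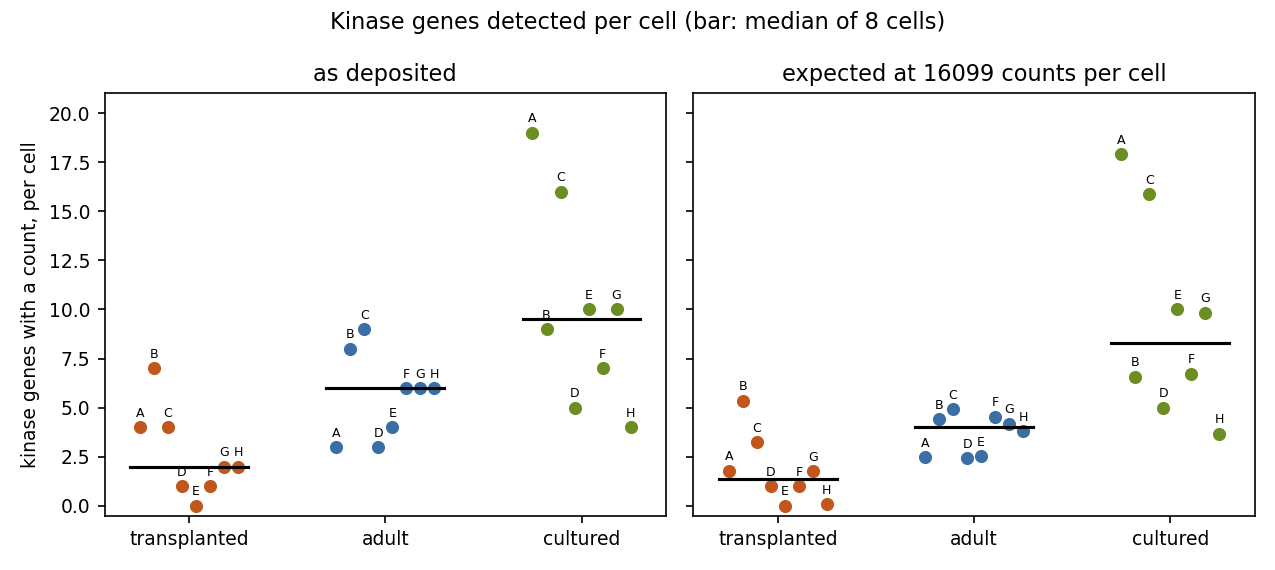
Number of kinase genes with at least 1 count in each cell, as deposited (left) and calculated for 16099 counts per cell (right), with letters naming cells and bars marking the median of 8 cells. Transplanted cells lie at 0 to 7, adult cells at 3 to 9 and cultured cells at 4 to 19 as deposited.

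Most kinase genes were seen in a single cell of a group. Of the 16 kinase genes with a count in transplanted cells, 13 (81.2%) were counted in only 1 of 8 cells, against 57.7% of all genes with a count there. In adult cells it was 12 of 23 (52.2%, all genes 53.2%) and in cultured cells 26 of 44 (59.1%, all genes 53.1%). No kinase gene reached 4 transplanted cells, where 16.6% of all detected genes did, while 4 kinase genes (17.4%, all genes 17.5%) reached 4 or more adult cells and 5 (11.4%, all genes 10.2%) reached 4 or more cultured cells, shares at the background. Within cells the counts were just as uneven. Prkca made up 96.5% of the kinase counts of transplanted cell A and Map3k7 95.6% of those of transplanted cell G, while the top gene of cultured cell A, Prkaa1, made up 15.5% of that cell's kinase counts. A group level of a kinase gene is therefore mostly the level of 1 or a few cells, and the counts by cell are given for each gene below. This held for genes at large as well. Among genes with at least 10 counts in a group, the top cell held a median of 100.0% of a kinase gene's counts in transplanted cells (all genes 96.9%). The medians were 99.1% in adult cells (all genes 90.9%) and 85.5% in cultured cells (all genes 80.0%).

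**Figure D2:**
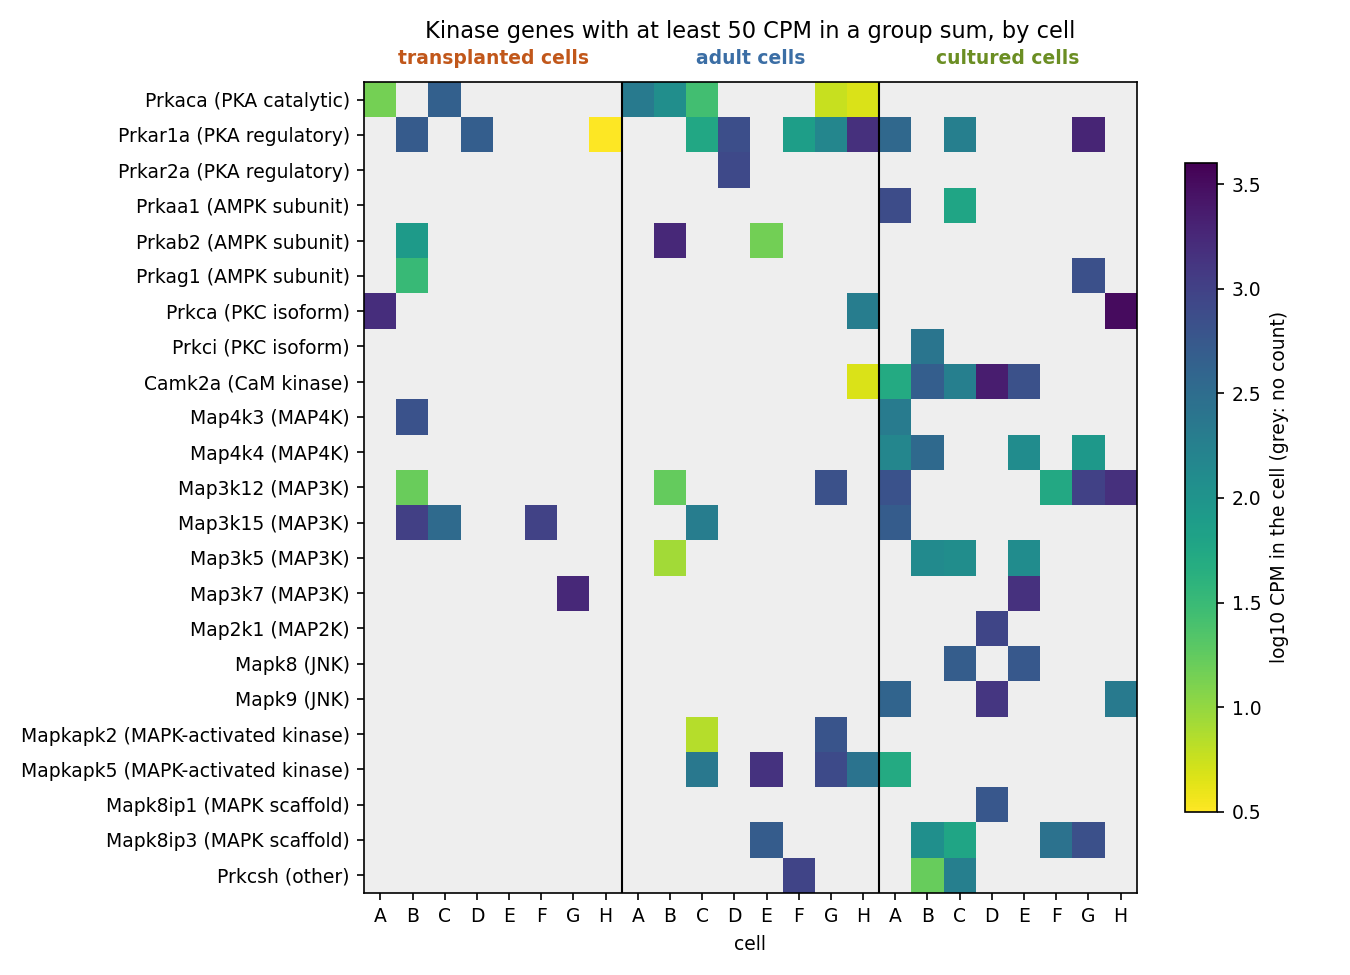
Level in each of 24 cells (log10 CPM within the cell, grey where there was no count) of 23 kinase genes that reached 50 CPM in at least 1 group sum, ordered by role. Filled cells are sparse in the transplanted columns, where no gene is filled in more than 3 of 8 cells, and Camk2a is filled in 5 of 8 cultured cells.

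Of the 57 kinase genes, 25 (43.9%) had counts in cultured cells alone, which is close to the 43.4% of all listed genes seen only there. Transplanted cells alone had Mapk4 and Prkce (3.51%, all genes 4.49%). Adult cells alone had Camk2b, Map2k3, Mapk10, Mapk14, Mapkapk2 and Prkar2a (10.5%, all genes 6.60%), of which Camk2b and Mapk10 had 1 count each. The 6 seen in all 3 groups (10.5%, all genes 15.8%) were Camk2d, Map3k12, Map3k15, Mapk6, Prkar1a and Prkca. By role, JNK (3 listed genes), p38 (1), MAP kinase-activated kinase (3) and scaffold genes (5) had 0 counts in transplanted cells. MAP4K genes (4) had 0 in adult cells and p38 had 0 in cultured cells. A count was seen for 16 of 57 kinase genes and 3129 of 9595 listed genes in transplanted cells, and for 23 and 3651 in adult cells. Whether these small roles were emptier than other genes was not tested.

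**Figure D3:**
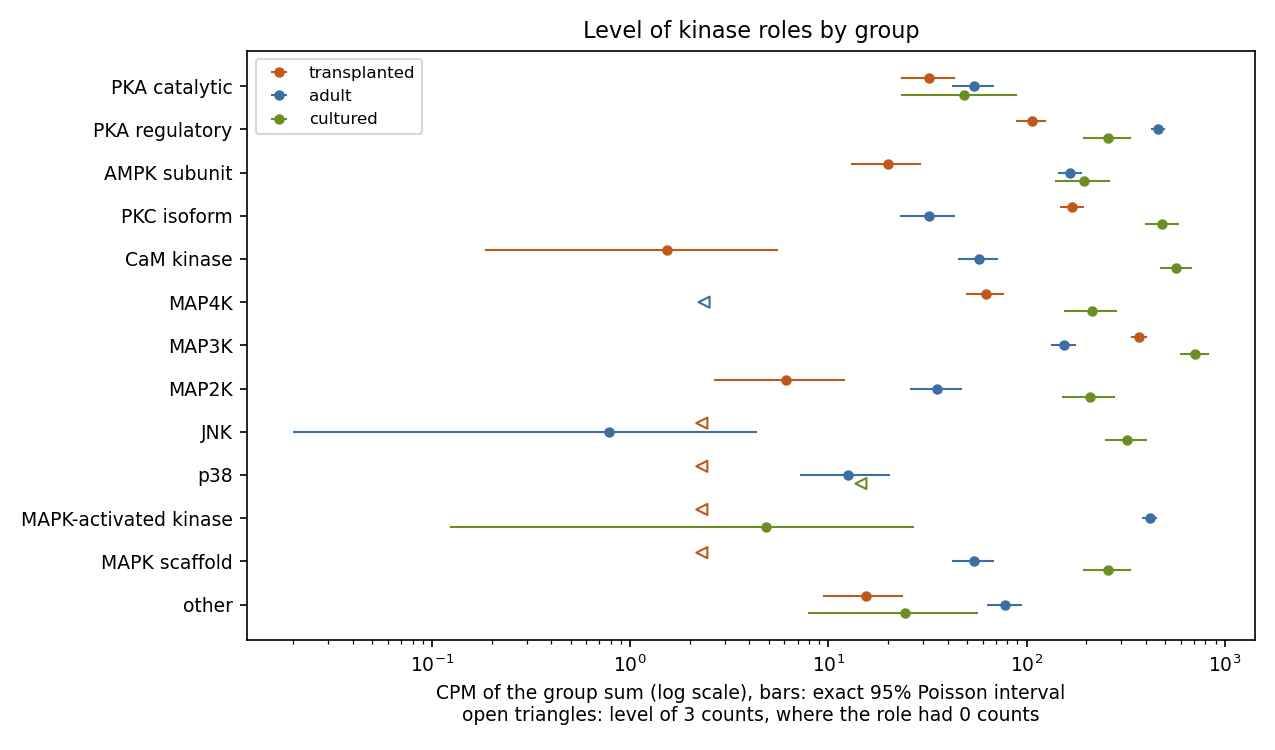
Summed level of roles in the group sum (CPM, log axis), with exact 95% Poisson intervals, and open triangles at the level of 3 counts where a role had 0 counts. CaM kinase genes stand at 1.54 CPM in transplanted, 57.4 CPM in adult and 567 CPM in cultured cells, and MAP kinase-activated kinases at 418 CPM in adult cells, 4.85 CPM in cultured cells and 0 counts in transplanted cells.

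The PKA regulatory subunit RIα, encoded by Prkar1a (mm10 chromosome 11, bases 109649405 to 109669656), was the kinase gene seen most widely, with counts in 11 cells. It had 64, 73 and 1 counts in transplanted cells B, D and H, 8, 109, 8, 26 and 309 in adult cells C, D, F, G and H, and 7, 3 and 43 in cultured cells A, C and G, with 0 in all others. The groups overlapped, and each sum was carried by 1 or a pair of cells. The group level was 106 CPM (89.0 to 125) in transplanted, 362 CPM (329 to 396) in adult and 257 CPM (193 to 336) in cultured cells. Transplanted cells stood 3.42-fold lower than adult cells (2.82 to 4.16), and this was 1.34-fold without adult H, 5.76-fold without transplanted B and 6.38-fold without transplanted D. Against cultured cells, transplanted cells were 2.43-fold lower (1.73 to 3.35), but 1.94-fold higher without cultured G, and 4.09-fold and 4.53-fold lower without transplanted B and D. Adult over cultured was 1.41-fold (1.06 to 1.91), 1.81-fold lower without adult H and 6.64-fold higher without cultured G. Both directions against cultured cells thus turned when a single cell was left out, cultured G in the first case and adult H in the second.

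The other PKA genes differed in which subunit was seen. Prkaca, the catalytic subunit Cα, had 2 and 40 counts in transplanted cells A and C and 49, 14, 4, 1 and 1 counts in adult cells A, B, C, G and H, with 0 in the remaining cells of these groups and in all 8 cultured cells. Its level was 32.2 CPM (23.2 to 43.6) in transplanted and 54.3 CPM (42.2 to 68.7) in adult cells. The ratio of transplanted to adult was 0.594 (0.395 to 0.884), and it was 0.0304 without transplanted C and 1.69 without adult A. Against cultured cells it was at least 2.22-fold higher in transplanted and at least 3.73-fold higher in adult cells, but without transplanted C the first had no ratio left and without adult A the second fell to at least 1.31-fold. Prkacb, the catalytic subunit Cβ, was seen in cultured cells alone, with 10 counts in 3 cells or 48.5 CPM (23.3 to 89.2). So the catalytic counts came from Prkaca in the transplanted and adult cells and from Prkacb in the cultured cells, and the 54.3 CPM of Prkaca in adult cells stand against an upper level of 14.6 CPM in cultured cells. Prkar2a, the regulatory subunit RIIα, had 127 counts, all of them in adult cell D.

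AMPK is a complex of a catalytic alpha, a scaffolding beta and a nucleotide-binding gamma subunit, and no single cell held listed genes of all 3 kinds. Of the gamma subunit genes only Prkag1 is listed, so Prkag2 and Prkag3 could not be seen. Both catalytic genes were counted in cultured cells alone. Prkaa1 had 15 counts in cultured A and 1 in cultured C, a level of 77.6 CPM (44.4 to 126), and Prkaa2, the alpha subunit that predominates in muscle, had 6 counts over cultured A, C and G, a level of 29.1 CPM (10.7 to 63.3). The beta subunit gene Prkab2 had 10 counts in transplanted B and 209 and 2 in adult B and E, with 0 elsewhere. Its level of 7.68 CPM in transplanted cells was 21.6-fold lower (11.5 to 45.7) than the 166 CPM in adult cells, but 4.43-fold higher without adult B, and at least 65.2-fold lower without transplanted B. Prkab1 had 12 counts in transplanted C and 2 in cultured A. The gamma subunit gene Prkag1 had 4 counts in transplanted B and 16 in cultured G. Of its 2175 exonic bases, 950 are shared with B130046B21Rik on the opposite strand. Without knowledge of strand use in counting, reads of Prkag1 and this gene cannot be told apart there. Transplanted cell B is the single transplanted cell that held more than 1 AMPK subunit gene.

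PKC counts came mostly from Prkca, the conventional PKC alpha, and those from a single cell of each group. Prkca had 220 counts in transplanted A, 41 in adult H and 78 in cultured H, and 0 in the 21 other cells. Its group levels were 169 CPM (147 to 193), 32.2 CPM (23.1 to 43.7) and 378 CPM (299 to 472), and within those 3 cells it stood at 1549.7, 194 and 3266 CPM. The ratios between groups compare these cells: transplanted over cultured was 0.446 (0.343 to 0.586), at least 10.3-fold higher without cultured H and at least 146-fold lower without transplanted A. Cultured H had the lowest share of cardiomyocyte markers of all 24 cells. Prkci, an atypical PKC, had 15 counts in cultured B alone. Prkcd, a PKC of the kind that needs diacylglycerol but no calcium, had 6 counts in 2 cultured cells, Prkch 1 in a cultured cell and Prkce 1 in transplanted A.

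Of the CaM kinase II isoforms, Camk2a was counted almost only in cultured cells, while Camk2d had counts in all 3 groups. Camk2a, the isoform best known from brain (mm10 chromosome 18, bases 60925618 to 60988152), was counted 1, 29, 3, 62 and 11 times in cultured cells A to E and 0 times in cultured F, G and H. Outside the cultured group it had 1 count, in adult H, and none in transplanted cells. The cells with Camk2a in culture are thus cell A and the 4 cells rich in Rpph1, and the 3 cells poor in cardiomyocyte markers had none. Its level was 514 CPM (421 to 622) in cultured cells, and it was at least 223-fold lower in transplanted cells, or at least 107-fold without cultured D. In adult cells it was 654-fold lower (115 to 26061), on that single adult count, at least 182-fold without adult H and 314-fold without cultured D. At 16099 counts per cell it would be expected in 0.0762 adult cells and 4.81 cultured cells.

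Camk2d, the main CaM kinase II isoform of heart muscle, was highest in adult cells, at low counts. It had 2 counts in transplanted C, 26, 7 and 3 counts in adult B, C and E, and 1 count in cultured H. The adult level of 28.3 CPM (19.8 to 39.2) lay above the transplanted level of 1.54 CPM (0.186 to 5.55), while the cultured level of 4.85 CPM had an interval of 0.123 to 27.0 that overlaps the adult one. Camk2g had 6 counts in cultured E alone and Camk2b 1 count in adult B. Camk1, a CaM kinase outside the second family, had 35 counts in adult C and 4 in cultured A.

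The genes of the ERK relay described here were each seen in few cells. Mapk3, or ERK1, had 9 counts in cultured A alone, and Map2k1, the MEK1 kinase that acts on ERK, had 25 counts in cultured D alone. Map2k2, or MEK2, was counted in transplanted G (8) and adult D (5) and in no cultured cell.

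The atypical ERK genes were low everywhere. Mapk6, or ERK3, had 1 count in transplanted H, 18 over 2 adult cells and 3 in a cultured cell, and Mapk4, or ERK4, had 5 in transplanted A. Of the JNK genes, Mapk9 (JNK2) had 8, 36 and 5 counts in cultured A, D and H and none in transplanted or adult cells. It was at least 103-fold lower in transplanted and at least 101-fold lower in adult cells than the 238 CPM (176 to 314) of cultured cells, and at least 31.7-fold and 30.9-fold lower without cultured D. Mapk8 (JNK1) had 8 and 9 counts in cultured C and E, and Mapk10 (JNK3) had 1 count in adult C. The JNK-activating kinase gene Map2k4 was likewise seen in cultured cells alone, with 8 counts in 3 cells. Of the p38 genes only Mapk14 (p38α) is listed, and it had 11 and 5 counts in adult A and F and none elsewhere, a level of 12.6 CPM (7.19 to 20.4), which is under what 0 counts in the cultured group allow. The p38-activating kinase gene Map2k3 had 40 counts, all in adult A. That cell held the most Mapk14 counts and was also the most deeply sequenced adult cell. Map2k5, which acts on ERK5, had 10 counts in cultured C and G.

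Of the 3 listed kinases activated by p38 and related MAP kinases, Mapkapk5 and Mapkapk2 had nearly all of their counts in adult cells, and Mapkapk3 had none in any group. Mapkapk5 had 33, 197, 138 and 55 counts in adult C, E, G and H, 1 count in cultured A and none in transplanted cells. At 333 CPM (302 to 366) it was 68.6-fold higher in adult than in cultured cells (12.2 to 2715), 41.2-fold without adult E and at least 20.7-fold without cultured A. In transplanted cells it was at least 144-fold lower than in adult cells, or at least 86.8-fold without adult E. The depth of transplanted and adult cells was alike, and at 16099 counts per cell Mapkapk5 would still be expected in 3.97 adult cells. Its exons lie on chromosome 5 (mm10, 121525038 to 121545905) and are 3195 bases long. Of these bases, 1805 are shared on the same strand with Adam1a and 1801 with Gm42878, and neither of these genes is listed. Reads in the shared bases, which are most of the exon length of Mapkapk5, cannot be told apart. Mapkapk2, the main p38-activated kinase, had 1 and 107 counts in adult C and G and none elsewhere. It was at least 5.84-fold higher in adult than in cultured cells, but without adult G no ratio was left.

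MAP3K genes were the most numerous role, with 11 listed genes, of which 3 had counts in transplanted, 4 in adult and 10 in cultured cells. Those of 50 CPM or more were Map3k5, Map3k7, Map3k12 and Map3k15. Map3k7 encodes TAK1, which acts downstream of TGF-beta and cytokine receptors. It had 174 counts in transplanted G and 23 in cultured E and none elsewhere, which gave 134 CPM (114 to 155) and 112 CPM (70.7 to 167). The ratio of 1.20 (0.773 to 1.94) compares these 2 cells, and it was at least 44.7-fold lower without transplanted G and at least 8.46-fold higher without cultured E. Map3k5, or ASK1, a kinase of the oxidative stress response, had 8, 2 and 2 counts in cultured B, C and E and 1 in adult B. Map3k4, which feeds the p38 and JNK relays, reached 50 counts over adult B, F, G and H (8, 25, 2 and 15), against 2 in cultured A and none in transplanted cells. The MAP4K genes Map4k3 and Map4k4, which feed into the JNK relay, also lay in few cells. Map4k3 had 81 counts in transplanted B and 4 in cultured A, and Map4k4 had 3, 21, 2 and 2 counts in cultured A, B, E and G. Map4k4 was at least 59.0-fold lower in transplanted and at least 57.6-fold lower in adult than in cultured cells, and 20.9 and 20.4 without cultured B.

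Map3k15 and Map3k12 need to be read beside their neighbours. Map3k15 (mm10 chromosome X, 159988433 to 160123351, plus strand) shares 603 exonic bases with Pdha1, the E1 alpha subunit of pyruvate dehydrogenase, on the opposite strand, which is 13.9% of its exon length. Map3k12 (chromosome 15, 102497646 to 102517064, minus strand), which encodes the kinase DLK, shares 1573 bases, or 17.5%, with the poly(C)-binding protein gene Pcbp2 on the opposite strand. Strand use in counting is not given in the sources used here, and without strand the reads of such a pair cannot be told apart in the shared bases.

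Map3k15 had 129, 30 and 147 counts in transplanted B, C and F, 28 in adult C and 10 in cultured A. In these 5 cells, in the same order, Pdha1 had 159, 34, 151, 28 and 3 counts, and all 5 cells with Map3k15 had Pdha1. Of the other 19 cells, 12 had neither gene and 7 had Pdha1 alone, at 1 to 18 counts. Map3k12 had 2 counts in transplanted B, 2 and 115 in adult B and G, and 13, 1, 23 and 35 in cultured A, F, G and H. In these 7 cells Pcbp2 had 1, 37, 214, 12, 2, 36 and 60 counts, and 12 of 24 cells had neither. The overlap pairs are thus found in the same cells, and close to equal in number for Map3k15 and Pdha1 in transplanted and adult cells. Of the remaining kinase genes with a listed overlapping gene, Camk1 shared both of its cells with Ogg1 (35 and 2 counts in adult C, 4 and 1 in cultured A), and Map3k11 and Map4k5 did not share their single cell with Pcnx3 or Atl1. Mapk8ip3 was not seen with Mrps34 in any of the 5 cells that held it, and it was seen with Nme3 in 1. It also shares 1557 exonic bases on the same strand with Eme2, which is not listed, so reads there cannot be told apart.

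**Figure D4:**
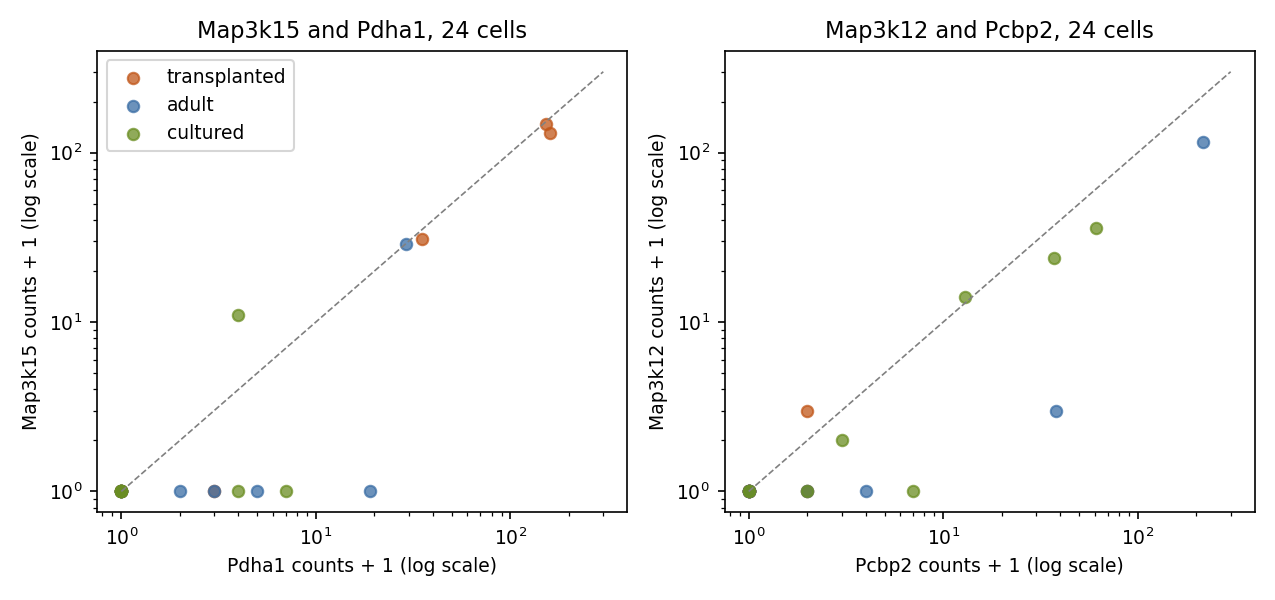
Counts of Map3k15 against Pdha1 (left) and of Map3k12 against Pcbp2 (right) in 24 cells, each plus 1 on log axes, with the dashed line marking equal counts. All 5 cells with Map3k15 also held Pdha1, and all 7 cells with Map3k12 also held Pcbp2.

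As counted, Map3k15 was the highest kinase gene of transplanted cells per length. It stood at 235 CPM (209 to 263) in transplanted, 22.0 CPM (14.6 to 31.8) in adult and 48.5 CPM (23.3 to 89.2) in cultured cells. Transplanted over adult was 10.7-fold (7.23 to 16.3), 6.82 and 6.27 without transplanted B and F and at least 88.3 without adult C. Transplanted over cultured was 4.84-fold (2.60 to 10.2), 3.10 and 2.85 without transplanted B and F and at least 14.6 without cultured A. Map3k12 stood at 1.54 CPM (0.186 to 5.55), 92.0 CPM (76.1 to 110.3) and 349 CPM (273 to 439.8). Pdha1 itself stood at 266, 41.7 and 58.2 CPM in transplanted, adult and cultured cells, and Pcbp2 at 1.54, 201 and 567 CPM, the same orders as their overlapping kinase genes. The values of Map3k15 and Map3k12 were not separated from those of the neighbours.

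Scaffold proteins hold the kinases of a relay together, and the listed ones were seen in cultured cells and, for Mapk8ip3, in adult cell E. Mapk8ip3, or JIP3, had 69 counts there and 7, 1, 5 and 16 in cultured B, C, F and G, which gave 54.3 CPM (42.2 to 68.7) in adult and 141 CPM (94.2 to 202) in cultured cells. Adult over cultured was 0.386 (0.247 to 0.618), at least 53.0-fold lower without adult E and 0.766 without cultured G. Mapk8ip1, or JIP1, had 16 counts in cultured D alone, and Mapk8ip2, Mapk1ip1l and Mapkbp1 had 1, 5 and 2 counts in cultured cells. The genes outside the kinase families differed from these. Prkcsh had 99 counts in adult F and 4 over cultured B and C. Mapkap1 had 20 counts in transplanted B and 1 in cultured F.

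Levels of different genes can be set side by side only per length of exon. Per kilobase, Map3k15 led in transplanted cells at 54.0 CPM (48.1 to 60.5), with the overlap noted above, followed by Prkar1a at 24.5 (20.6 to 28.9) and Map3k7 at 20.8 (17.7 to 24.1), whose intervals overlap. In adult cells Mapkapk5 stood at 104.0 CPM per kilobase (94.5 to 115), with the bases shared with Adam1a noted above, Prkar1a at 83.7 (76.1 to 91.6) and Prkab2 at 32.6 (28.3 to 37.3). The order of the first pair turned to 62.5 and 94.1 without adult E and to 81.1 and 91.3 without adult G, and Prkar1a was 33.0 without adult H and Prkab2 to 0.340 without adult B. In transplanted cells Map3k7 had no count without cell G, Map3k15 was 34.5 and 31.8 without B and F, and Prkar1a 14.5 and 13.1 without B and D. In cultured cells Camk2a at 68.9 (56.4 to 83.3) and Prkar1a at 59.5 (44.7 to 77.8) had overlapping intervals, with Camk2a at 33.1 without cell D and Prkar1a at 12.6 without cell G. The 33 kinase genes under 50 CPM in every group were seen as 7 genes at 0.768 to 15.4 CPM in transplanted cells, 9 genes at 0.786 to 39.3 CPM in adult cells and 24 genes at 4.85 to 48.5 CPM in cultured cells. Of these, Map3k1, Map3k2, Map3k3, Map3k6, Map3k11, Map4k1 and Map4k5 had counts in cultured cells alone, from 1 to 10 per gene.

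Across the kinase genes the ratios were read against all listed genes by the same rule, with at least 10 counts over both groups and a 2-fold ratio. Between transplanted and cultured cells 25 kinase genes could be measured. Of these 4 (16.0%) were higher in transplanted cells, where 22.5% of 4958 genes were, and 18 (72.0%) were lower, where 64.0% of all genes were. The higher ones were Map3k15, Map4k3, Mapkap1 and Prkaca. The ratio of Mapkap1 was 3.16 with an interval of 0.506 to 131, which takes in 1, so its direction is open. On the log2(CPM + 1) scale the median ratio was -5.63 for kinase genes and -5.63 for all genes, which is the value of a gene with 10 counts in cultured and 0 in transplanted cells. With genes at 0 set to the floor the medians were -4.66 and -4.53. The kinase genes therefore lay near the background. The 4 higher genes became 2 of 22 without transplanted B. Without cultured B to E, 1 of 15 was higher and 9 were lower, and without cultured F, G and H it was 3 and 12 of 21. These 2 settings were chosen after the data were seen.

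Between adult and cultured cells 32 kinase genes could be measured, and these comparisons share the cultured cells. In adult cells 9 (28.1%) were higher, beside 23.0% of 5132 genes, and 19 (59.4%) were lower, beside 62.1%. The higher ones were Camk2d, Map2k3, Map3k4, Mapkapk2, Mapkapk5, Prkab2, Prkaca, Prkar2a and Prkcsh. The ratio of Camk2d was 5.84 with an interval of 0.983 to 237, which takes in 1, so its direction is open. The median was -2.71 for kinase genes and -3.85 for all genes, or -2.74 and -4.04 with zeros at the floor. With single cells left out the first ran from -4.97 without adult C to -1.40 without cultured G. It turned to 0.71 without cultured B to E, where 6 of 21 were higher and 8 lower, and was -0.06 without cultured F, G and H, where 8 of 29 were higher and 13 lower. At these counts the kinase genes of adult cells had no stable median direction against cultured cells.

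Transplanted and adult cells, which were sequenced to a like depth, gave 22 measured kinase genes. In transplanted cells 6 (27.3%) were higher, beside 34.8% of 3501 genes, and 14 (63.6%) were lower, beside 44.3%. The higher ones were Map3k15, Map3k7, Map4k3, Mapkap1, Prkab1 and Prkca. The median was -3.65 for kinase genes and -0.37 for all genes, or -3.68 and -0.37 with zeros at the floor. With single cells left out the first ran from -4.38 without transplanted C to -2.46 without adult B. The share of kinase genes lower in transplanted cells was larger than that of all genes, a difference that was not tested. The number lower was between 12 and 15 of 20 to 22 measured with any single cell left out. The species of the 2 groups differ, so a lower count in one of them and a different share of mapped reads cannot be told apart.

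**Figure D5:**
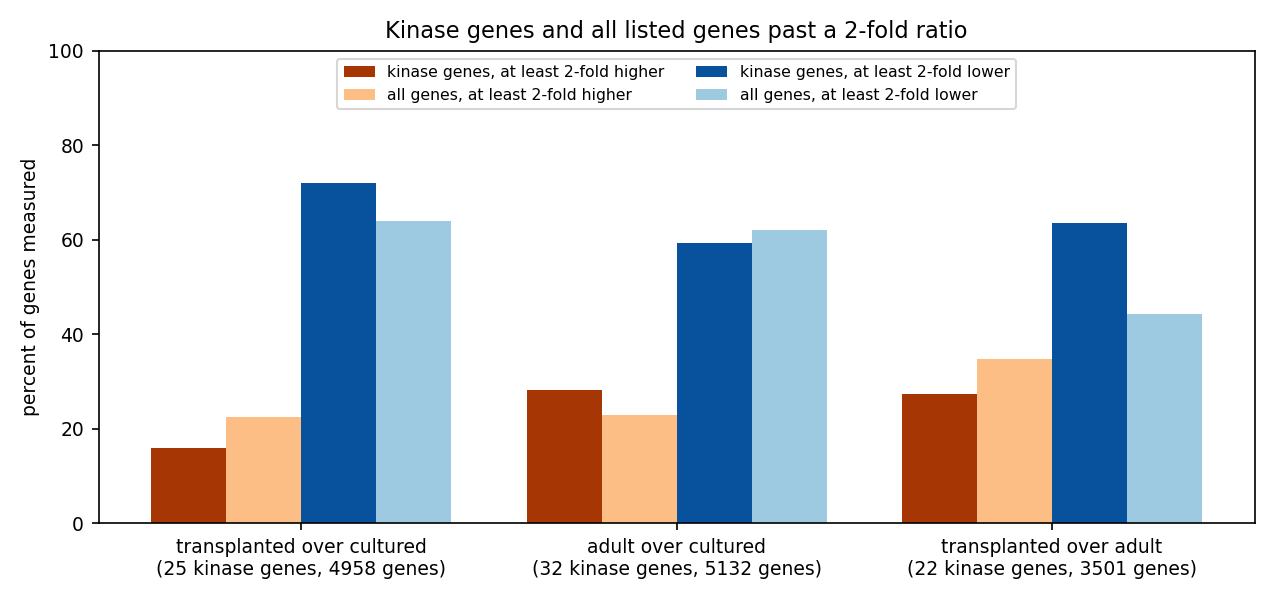
Percentage of measured kinase genes and of all measured genes that were at least 2-fold higher or lower in the first-named group of each comparison. Kinase genes lie near all genes where cultured cells are the reference, and 63.6% of kinase genes against 44.3% of all genes were lower in transplanted than in adult cells.

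Genes that act with these kinases, in 9 lists of 154 genes chosen by function, of which 132 are listed and 130 had a count, were counted by the same rule. In transplanted over cultured cells 14 were higher and 56 lower of 83 measured, in adult over cultured cells 21 and 53 of 93, and in transplanted over adult cells 16 and 37 of 66, with medians of -3.39, -2.02 and -1.11. Over all genes 22.5%, 23.0% and 34.8% were higher and 64.0%, 62.1% and 44.3% lower in these comparisons, with medians of -5.63, -3.85 and -0.37, and the partner genes were not tested against them. The list that went the other way was that of heart substrates of PKA and CaM kinase II, where 5 were higher and 2 lower of 7 in transplanted over cultured cells, with a median of 8.26. Phospholamban (Pln), the brake of the sarcoplasmic calcium pump, stood at 5638 CPM in 8 of 8 transplanted cells, 7916 CPM in 8 of 8 adult cells and 92.2 CPM in 2 of 8 cultured cells. Fxyd1, or phospholemman, stood at 1519 CPM, 1123 CPM and 0 counts. Pln and Mybpc3, among others in this list, are also in the cardiomyocyte marker list. The direction of the list is thus not separate from the marker shares given above. Against adult cells, 1 of 11 substrate genes was higher in transplanted cells and 5 were lower, with a median of -0.52. Pln was thus counted in every one of the transplanted and adult cells, while no kinase gene was counted in more than 3 transplanted or 5 adult cells.

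For the lists of inputs and targets, the counts stand beside 22.5% of all measured genes higher and 64.0% lower in transplanted than in cultured cells. Of the Ras and Raf genes 8 of 8 measured were lower, with a median of -7.18. Nras and Nf1, a Ras gene and the gene of a protein that inactivates Ras, had 0 and 0 CPM in transplanted, 3.93 and 0 CPM in adult and 567 and 863 CPM in cultured cells. Marcks, a classical PKC substrate, was at 0 counts in transplanted and adult cells and at 1329 CPM in 5 of 8 cultured cells. Of the PKA anchors and inhibitors, 10 of 14 were lower in transplanted than in cultured cells. The anchor gene Sphkap had 0 counts in transplanted and adult cells and 703 CPM in 4 cultured cells, while Pkig, a PKA inhibitor, stood at 95.2 CPM in 1 transplanted cell, 323 CPM in 5 adult cells and 34.0 CPM in 1 cultured cell. Gnas, the stimulatory G protein that feeds cyclic AMP, was seen in 6, 6 and 7 cells, at 409.9, 328 and 1441 CPM. Popdc2, a cyclic AMP-binding membrane protein, stood at 301 CPM in 5 transplanted cells, 328 CPM in 5 adult cells and 19.4 CPM in 1 cultured cell. In the calmodulin and calcineurin list, Rcan2, an inhibitor of calcineurin, stood at 134 CPM in 3 transplanted, 857 CPM in 6 adult and 4.85 CPM in 1 cultured cell. For the targets and phosphatases of MAP kinases 0 of 7 were higher and 4 lower in transplanted than in cultured cells. The transcription factor gene Atf2 had 1 count in transplanted cells, 708 counts in a single adult cell (557 CPM) and 76 counts over 5 cultured cells (369 CPM). In the same comparison 1 of 8 cyclic AMP and PKA input genes was higher and 5 lower, 1 of 12 calmodulin and calcineurin genes was higher and 9 lower, and 2 of 6 PKC input and binding genes were higher and 4 lower. Of the LKB1 and AMPK target genes 2 of 11 were higher and 7 lower, and of the PP1 and PP2A phosphatase genes 2 of 10 were higher and 7 lower. Mlycd, malonyl-CoA decarboxylase, stood at 122 CPM in 3 transplanted cells, 394 CPM in 4 adult cells and 0 counts in cultured cells. Ppp1cb, a PP1 catalytic subunit, stood at 143 CPM in 2 transplanted, 296 CPM in 4 adult and 1504 CPM in 6 cultured cells.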

How the data were processed

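The authors deposited whole-number gene counts for 24 single cells. Per the labels' protocols, cells were sorted or picked by hand, and cDNA was made by template switching, amplified and cut with Tn5. Per the submitters' processing notes, TopHat2 2.1.0, HTSeq, DESeq2 and build mm10 were used, in roles that are not stated. Sources used here do not give the annotation, the strand setting or how the listed genes were picked. No molecular identifiers are stated.

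Counts were summed over the 8 cells of a group and scaled to 1000000. Levels carry exact Poisson, ratios exact conditional binomial and shares exact Clopper-Pearson 95% intervals (scipy 1.17.1). A ratio to a group with 0 counts is a bound, computed with 3 counts in that group. No ratio is given when both groups had 3 counts or fewer. Medians used log2(CPM + 1) and genes with 10 or more counts over both groups. Described by cell were members of at least 50 CPM in a group. Some genes count in the totals and shares but are not reported here by name. From each list of partner genes the 3 highest by mean CPM were candidates for naming. Equal depth is the expectation at 16099 counts, the shallowest cell. Exon lengths and overlaps came from GENCODE M21 on mm10, where all 57 symbols matched. No pair of cells in a group agreed within sampling noise, the smallest chi-square per degree of freedom being 4.98. The calculation was tested on simulated data. Members, gene lists and settings were chosen with earlier results of these data known. Alternatives were TMM (edgeR 4.0.16) and DESeq2 1.42.0 factors on the sums, other minimums and pseudocounts, thinning, equal cell weights, totals without Rn45s and Rpph1, and leaving out cells.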

Additional observations from a re-analysis of the deposited data

Results flagged for a closer look

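A gap test of the highest and lowest cell against the others was made for kinase genes of at least 50 CPM in a group sum. It covered groups in which the gene was seen in 4 or more of the 8 cells. The test marked 3 genes, all in cultured cells. Its chance rate of about 1 in 20 groups holds for normally distributed values, which these sparse levels are not. Camk2a reached 2223 CPM in cultured cell D. Mapk8ip3 reached 706 CPM in cultured cell G. Map4k4 reached 345 CPM in cultured cell B. The ratios without these cells stand beside each gene in the report, and no cause was tested.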

How the results depend on the processing

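No paired analysis was possible because the letters A to H only name cells and no test was made. Another scaling shifts all ratios at once, by 0.918 (TMM) and 0.224 (DESeq2) on the log2 scale for transplanted over cultured and by 0.921 and 0.137 for adult over cultured. The median for transplanted over cultured (-5.63) was -5.03 with TMM, -4.66 with a minimum of 1 count and also with zeros at the floor, -1.22 with a minimum of 30, -3.42 with a pseudocount of 5 CPM, -2.44 without cultured B to E, and -6.25 to -5.63 with each cell left out. Its 4 higher of 25 measured genes were 2 of 21 after thinning, 2 of 25 by the nearer interval end and 1 of 15 without cultured B to E. Its 18 lower of 25 were 30 of 49 with a minimum of 1, 6 of 10 with a minimum of 30 and 9 of 15 without B to E. With each cell left out, 21 to 25 genes were measured, of which 2 to 5 were higher and 14 to 19 lower. The median for adult over cultured (-2.71) was -1.80 with TMM, -3.96 with a minimum of 1, -5.63 after thinning, -5.34 without genes that overlap a listed gene, -0.06 without cultured F to H, and turned to 1.20 with a minimum of 30 and to 0.71 without B to E, with -4.97 to -1.40 for each cell left out. Its 9 higher of 32 measured genes were 5 of 25 after thinning. Its 19 lower of 32 were 30 of 53 with a minimum of 1, 7 of 18 with a minimum of 30 and 8 of 21 without B to E. With each cell left out, 28 to 32 genes were measured, of which 7 to 9 were higher and 15 to 19 lower. The median for transplanted over adult (-3.65) was -1.30 and -4.83 with minimums of 1 and 30, -4.78 after thinning, -2.08 with a pseudocount of 5 CPM and -4.38 to -2.46 with each cell left out. Its 14 lower of 22 measured genes were 8 of 13 after thinning, and its 6 higher were 4 of 13. With each cell left out, 20 to 22 genes were measured, of which 12 to 15 were lower and 4 to 7 higher. The share over all genes was not computed in these settings, so these counts have no background beside them. Shares of counts were 0.104% in transplanted cells and 0.431% in cultured cells with equal cell weights, and in cultured cells 0.447% without Rn45s and Rpph1 and 0.439% without B to E. With each cell left out they ran from 0.0607 to 0.107% in transplanted, 0.143 to 0.178% in adult and 0.337 to 0.497% in cultured cells.

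Over the alternatives, the 55 ratios of single genes gave 1024 values that moved little, 100 that moved and 9 that turned round, where a turn is counted only for ratios of at least 2-fold with at least 10 counts left. Without these limits, 11 ratios crossed 1 when a cell was left out. The ones not counted above are Map3k7 transplanted over cultured (1.20, at least 44.7-fold lower without transplanted G), Map4k3 transplanted over cultured (3.20, at least 7.62-fold lower without transplanted B), Prkar1a adult over cultured (1.41, 0.554 without adult H), Prkcsh adult over cultured (4.01, at least 7.52-fold lower without adult F) and Prkaca transplanted over adult (0.594, 1.69 without adult A). On the log2 scale, Prkar1a transplanted over cultured turned to 0.58 without cultured F to H and ran from -2.18 to 0.96 with each cell left out. Prkca turned to 2.99 in that comparison and to 0.60 for adult over cultured without F to H. With each cell left out Prkca ran from -7.19 to 3.36 (transplanted over cultured), -7.06 to 0.97 (adult over cultured) and -3.64 to 5.90 (transplanted over adult). Map3k15 ran from -4.19 to 0.45 for adult over cultured and Prkab2 from -6.03 to 2.15 for transplanted over adult. The fewer counts or cells in these settings are part of their construction, and no other cause was tested.

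With 206178 counts over the cultured group, levels under 14.6 CPM cannot be told from 0 there. That limits ratios of genes absent from cultured cells more than ratios of genes absent from the other groups.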
